A study of Homo sapiens with 17 samples.

Results

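The genes described here are 10 members of the Notch pathway in CHP-134, a line established from a human neuroblastoma in which the oncogene MYCN is amplified. They are the receptor genes NOTCH1, NOTCH2 and NOTCH3, the ligand genes DLL1, DLL3, JAG1 and JAG2, and the transcription factor genes HES1, HES6 and HEY1. Each was taken by its symbol from the 60662 gene entries that the tables of cultured cells and of tumors both hold, and all 10 were found. The 6 groups comprised 8 libraries of cultured cells, 2 per group, and 9 libraries of tumors. Cells got the solvent DMSO, or all-trans retinoic acid (ATRA) at 2 µM over 1, 3 or 6 days. DMSO cells form a single group, with no DMSO libraries matched to 1, 3 or 6 days. Differences from DMSO in culture thus cannot be told apart from those of time in culture. The tumors grew from luciferase-labelled CHP-134 cells under the skin of young adult female athymic nude mice, which lack T cells but keep other immune cells, vessels and stroma. Of these, 5 came from control mice (control tumors), which the labels call untreated and the authors also call vehicle-treated. The other 4 came from mice given 13-cis-retinoic acid by mouth at 25 mg/kg, with 2 doses per day (RA tumors). Retinoic acid kills CHP-134 cells in culture over several days, and libraries of the later times are of the cells that were collected then. All groups are of 1 line. The labels do not say whether replicates of cells were grown apart, though the authors call the 2 replicates of the time course independent. The authors used 5 mice per treatment group, and each tumor library has its own identifier. In either setting p-values measure only the spread between these libraries.

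In the Notch pathway a ligand of the Delta or Jagged family on one cell binds a receptor on its neighbour, and the receptor is then cut so that its inner part moves to the nucleus. There it joins the DNA-binding protein RBPJ and turns on genes of the HES and HEY families, whose products repress genes that drive neurons to form. In the developing nervous system the pathway holds cells in a precursor state, and sympathetic neurons, the lineage of neuroblastoma, arise where it is released. DLL3 differs from the other ligands in that it sits mostly inside the cell and does not activate receptors on neighbours, and HES6 differs from HES1 in that it opposes HES1 and favours neuron formation.

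Library totals were 31607051 to 39422897 counts in cells and 17266558 to 29078889 in tumors. Levels are given as CPM (counts scaled to library size) on 1 TMM scale set over all 17 libraries. Fold changes come from edgeR's quasi-likelihood test within cells, within tumors or over all libraries, and FDR is its p-value after Benjamini-Hochberg adjustment over all genes tested. A gene was called when FDR was under 0.05 and the difference was over 2-fold. The 8 neuroblastoma markers summed to 2080 to 4070 CPM over the libraries. MYCN averaged 981 to 2950 CPM in the groups, and HAND2 averaged 137 to 296. The others were uneven: GATA3 averaged 316 CPM in DMSO cells and 39.4 in control tumors, ISL1 52.4 in DMSO cells and 5.51 after 6 days of ATRA, and TH and DBH were at 0.263 and 0.172 in DMSO cells. Cells and tumors differed in library kit and in host as well as in growth, so these cannot be told apart where they are set side by side. In bulk RNA, fewer cells that express a gene and less RNA per cell cannot be told apart either.

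Of the 10 genes, 7 have a promoter in the RefSeq table (GRCh38.p14), and those of HES1 and HES6 are shown because these factors stand on opposite sides of the pathway and lay on opposite sides of their DMSO levels after 1 day of ATRA. Each line holds the 250 bases before the start, 5′ to 3′, with capitals for TGGGAA (the core that RBPJ binds) and CACNAG (the N box that HES factors bind), searched on both strands.
HES1 promoter, chr3:194135898-194136147, plus strand: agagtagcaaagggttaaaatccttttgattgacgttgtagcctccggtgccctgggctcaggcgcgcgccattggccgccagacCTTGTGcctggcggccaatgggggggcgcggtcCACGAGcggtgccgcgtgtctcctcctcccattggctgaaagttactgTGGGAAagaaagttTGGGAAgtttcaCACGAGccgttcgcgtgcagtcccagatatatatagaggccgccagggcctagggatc
HES6 promoter, chr2:238240039-238240288, minus strand: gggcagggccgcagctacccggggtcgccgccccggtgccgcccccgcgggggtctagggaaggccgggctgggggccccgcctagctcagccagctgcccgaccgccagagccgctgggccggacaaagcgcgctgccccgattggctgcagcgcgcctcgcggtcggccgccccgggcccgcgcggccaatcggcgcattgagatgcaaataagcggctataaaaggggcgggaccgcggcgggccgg
The HES1 window holds 2 RBPJ cores, 84 and 70 bases before the start, and 3 N boxes, 165, 132 and 58 bases before it, with no overlap between the motifs. The HES6 window holds neither motif. Among the 35116 promoters in the table, 20.8% hold the RBPJ core and 32% the N box. Of the other 5 windows, NOTCH3's holds 1 N box, 211 bases before its start, and those of NOTCH1, NOTCH2, JAG1 and JAG2 hold neither. A match of letters is a description of the sequence only.

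Compared per length of exon, the genes fell into a high and a low set. In DMSO cells HES6 stood at 25.1 CPM per kb, DLL3 at 15.5 and JAG2 at 5.99, whereas HEY1 stood at 0.721, NOTCH1 at 0.666, DLL1 at 0.575, NOTCH3 at 0.334, JAG1 at 0.331 and HES1 at 0.156. The receptors were thus expressed below the ligands DLL3 and JAG2, and the repressor HES1 below HES6. After 6 days of ATRA the order at the top had turned, with DLL3 at 51.7 CPM per kb, HES6 at 9.94 and JAG2 at 2.86. In control tumors HES6 led at 26.2 CPM per kb, followed by DLL3 at 8.04 and JAG2 at 7.90. Exon lengths were taken from GENCODE release 44, which may not be the release the authors counted with. Each is the union of all annotated exons of the gene, which can be longer than a transcript. For HEY1 this union covers the whole gene span, so its level per kb may be too low.

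**Figure D1:**
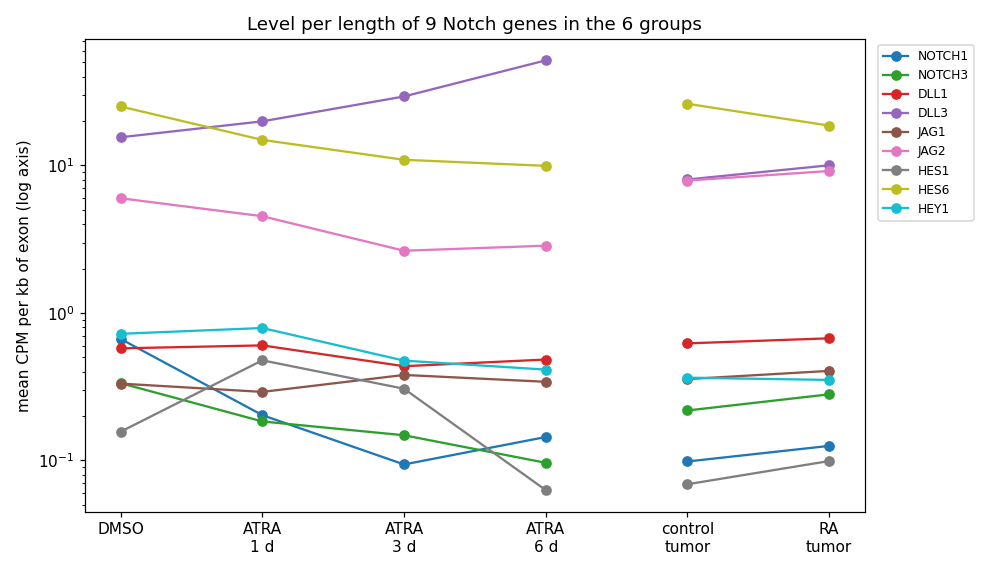
Mean level per length (CPM per kb of exon, log axis) of 9 of the genes in the 6 groups, with lines joining the culture groups in order of time and the tumor groups to each other. DLL3, HES6 and JAG2 lie above 2 CPM per kb in every group and the other 6 genes below 1, and the lines of DLL3 and HES6 cross in culture. NOTCH2 is left out because it is at 0 in 3 groups.

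NOTCH1 encodes the receptor best known from development and leukemia and lies on the minus strand of chromosome 9 (chr9:136494433-136546048, hg38). In DMSO cells it stood at 7.75 and 8.93 CPM. It stood at 2.28 and 2.79 CPM after 1 day of ATRA, at 1.29 and 1.06 after 3 days and at 1.49 and 2.12 after 6 days. Both DMSO libraries lay above all other 15 libraries of the series, and no treated library of cells overlapped with them. NOTCH1 fell 3.24-fold by 1 day (log2 fold change −1.70 ± 0.16 SE, FDR 3.99e-11), 6.93-fold by 3 days (−2.79 ± 0.18, FDR 1.11e-15) and 4.71-fold by 6 days (−2.24 ± 0.17, FDR 1.34e-14), all in edgeR with Benjamini-Hochberg adjustment. The comparisons at 1, 3 and 6 days share the DMSO libraries. From 1 to 3 days it fell by another 1.10 on the log2 scale (SE 0.21, edgeR FDR 5.21e-05), a call that was lost without 1-day library 2 (−0.94) or 3-day library 2 (−0.95) and in the fit of all 17 libraries (−1.11, edgeR FDR 0.125). From 3 to 6 days it was 1.47-fold higher (edgeR FDR 0.0276), short of the 2-fold threshold.

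NOTCH3, a receptor gene known from vascular smooth muscle, lies on the minus strand of chromosome 19 (chr19:15159038-15200995). It stood at 2.81 and 3.47 CPM in DMSO cells and at 1.89 and 1.56 CPM after 1 day. After 3 days it stood at 1.26 and 1.52 CPM and after 6 days at 0.463 and 1.35. Every treated library of cells lay below both DMSO libraries, and the 6-day libraries lay far apart, with 14 and 42 counts. NOTCH3 was 1.79-fold lower at 1 day (edgeR FDR 0.0255), short of 2-fold. It fell 2.19-fold by 3 days (log2 fold change −1.13 ± 0.28, edgeR FDR 0.00294) and 3.51-fold by 6 days (−1.81 ± 0.30, FDR 3.19e-05). The 3-day call was lost without DMSO library 2 (−0.98) or 3-day library 1 (−1.01), and at 6 days the value was −2.78 without 6-day library 2 and −1.26 without 6-day library 1.

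NOTCH2, on chromosome 1 (chr1:119911553-120100779), had 0 counts in 7 of the 8 culture libraries and 1.99 in 6-day library 1. The 0 counts of the 2 DMSO libraries allow a level of up to 0.0437 CPM over the group, a limit for counting error only, as are all such limits. In tumors it had 1 to 7.25 counts per library. It did not pass the filter on low counts in any fit, so it was not tested. NOTCH2NLA, a partial copy of near-identical sequence, had 3.35 to 30.06 counts in every library, and how reads were split between them is uncertain.

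DLL3 is on the plus strand of chromosome 19 (chr19:39498895-39508481) and was the gene of the 10 whose level was above that of DMSO at each time in culture, beyond the spread between libraries. It stood at 40.7 and 40.6 CPM in DMSO cells and at 53.7 and 50.7 after 1 day. After 3 days it stood at 78.4 and 75.6 CPM and after 6 days at 132 and 139. The 4 groups did not overlap, and their order followed time. DLL3 was 1.3-fold higher at 1 day (log2 fold change 0.38 ± 0.04, edgeR FDR 2.2e-09) and 1.94-fold higher at 3 days (0.95 ± 0.04, FDR 1.87e-21), both short of 2-fold, and rose 3.25-fold by 6 days (1.70 ± 0.04, FDR 5.6e-31). Between neighbouring times it was 1.49-fold higher from 1 to 3 days (edgeR FDR 3.8e-15) and 1.68-fold higher from 3 to 6 days (FDR 1.83e-20).

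JAG2, a ligand gene on the minus strand of chromosome 14 (chr14:105140982-105168824), went the other way. It stood at 38.1 and 38.5 CPM in DMSO cells, at 27.9 and 30.0 after 1 day, at 17.1 and 16.7 after 3 days and at 17.6 and 18.9 after 6 days. The treated libraries all lay below the DMSO libraries. The 3-day and 6-day libraries lay close together, apart on this scale but overlapping when the cells were scaled alone. JAG2 was 1.31-fold lower at 1 day (edgeR FDR 4.43e-07), short of 2-fold, and fell 2.22-fold by 3 days (log2 fold change −1.15 ± 0.06, FDR 1.3e-18) and 2.15-fold by 6 days (−1.10 ± 0.06, FDR 5.12e-19). From 3 to 6 days the difference was 0.05 ± 0.07 on the log2 scale, with a 95% interval of −0.09 to 0.18. Its exons overlap those of a gene on the same strand in GENCODE release 44, and reads of both may not have been told apart.

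The ligand genes DLL1 and JAG1 were not called in any comparison. DLL1, on chromosome 6 (chr6:170282206-170306565), stood between 1.46 and 2.65 CPM in the 8 culture libraries. Its log2 fold change against DMSO was 0.08 ± 0.20 at 1 day, −0.37 ± 0.22 at 3 days and −0.29 ± 0.21 at 6 days. JAG1, on chromosome 20 (chr20:10637684-10673999), stood between 2.68 and 3.55 CPM in culture, and its log2 fold change was −0.17 ± 0.16, 0.23 ± 0.16 and 0.01 ± 0.16 at the same times. At 6 days the 95% intervals ran from −0.72 to 0.15 for DLL1 and from −0.33 to 0.34 for JAG1, which leaves room for differences of under 2-fold. Exons of both genes overlap those of a gene on the opposite strand, and the strand setting of the counting is not given in the sources used here.

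HES6, on the minus strand of chromosome 2 (chr2:238238267-238240662), fell in culture. It stood at 46.3 and 51.9 CPM in DMSO cells and at 29.7 and 28.6 after 1 day. After 3 days it stood at 21.9 and 20.8 CPM and after 6 days at 18.3 and 20.6. Both DMSO libraries lay above all treated libraries, and the 1-day libraries above those of 3 and 6 days. HES6 was 1.66-fold lower at 1 day (log2 fold change −0.73 ± 0.06, edgeR FDR 2.53e-12), short of 2-fold, and fell 2.24-fold by 3 days (−1.17 ± 0.06, FDR 2.57e-17) and 2.58-fold by 6 days (−1.37 ± 0.06, FDR 7.64e-20). From 1 to 3 days it was 1.35-fold lower (edgeR FDR 1.17e-06) and from 3 to 6 days 1.15-fold lower (FDR 0.0091).

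HES1, the classical target of Notch receptors, lies on the plus strand of chromosome 3 (chr3:194136148-194138732) and had few counts. There were 11 and 11 counts in the DMSO libraries, 32 and 38 after 1 day, 23 and 16 after 3 days, and 2 and 6 after 6 days. The 1-day and 3-day libraries lay above the DMSO libraries and the 6-day libraries below them, with no overlap between any pair of these groups. HES1 rose 3.07-fold by 1 day (log2 fold change 1.62 ± 0.40, edgeR FDR 0.00187), was 1.99-fold higher at 3 days (0.99 ± 0.43, FDR 0.0604, not called), and fell 2.48-fold by 6 days (−1.31 ± 0.59, FDR 0.043). From 3 to 6 days it fell by 2.30 on the log2 scale (SE 0.53, edgeR FDR 0.000225), a value that ran from −3.24 without 6-day library 2 to −1.76 without 6-day library 1. Without 3-day library 2 the 3-day difference from DMSO was called as well (1.27, edgeR FDR 0.0471). It passed the filter on low counts through the 1-day and 3-day libraries, where it was high, and 1 DMSO library, so a difference was built into its being tested. The fall at 6 days was lost in DESeq2 (FDR 0.134), in 1 fit of all 17 libraries with edgeR (FDR 0.166) and without DMSO library 1 (−1.42), DMSO library 2 (−1.23) or 6-day library 1 (−0.77). The rise at 1 day was lost in the fit of all 17 libraries (log2 fold change 1.60, edgeR FDR 0.22), and DESeq2 gave it no FDR.

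HEY1, a further target of Notch receptors, is on chromosome 8 and was not called at any time. It stood at 4.48 and 3.44 CPM in DMSO cells, at 4.28 and 4.38 after 1 day, at 2.78 and 2.42 after 3 days and at 2.28 and 2.24 after 6 days. The 3-day and 6-day libraries lay below the DMSO libraries, and the 1-day libraries between them. HEY1 was 1.49-fold lower at 3 days (edgeR FDR 0.00416) and 1.80-fold lower at 6 days (log2 fold change −0.85 ± 0.17, FDR 3.28e-05), both short of 2-fold. Without DMSO library 2 the 6-day difference passed the threshold (−1.03).

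**Figure D2:**
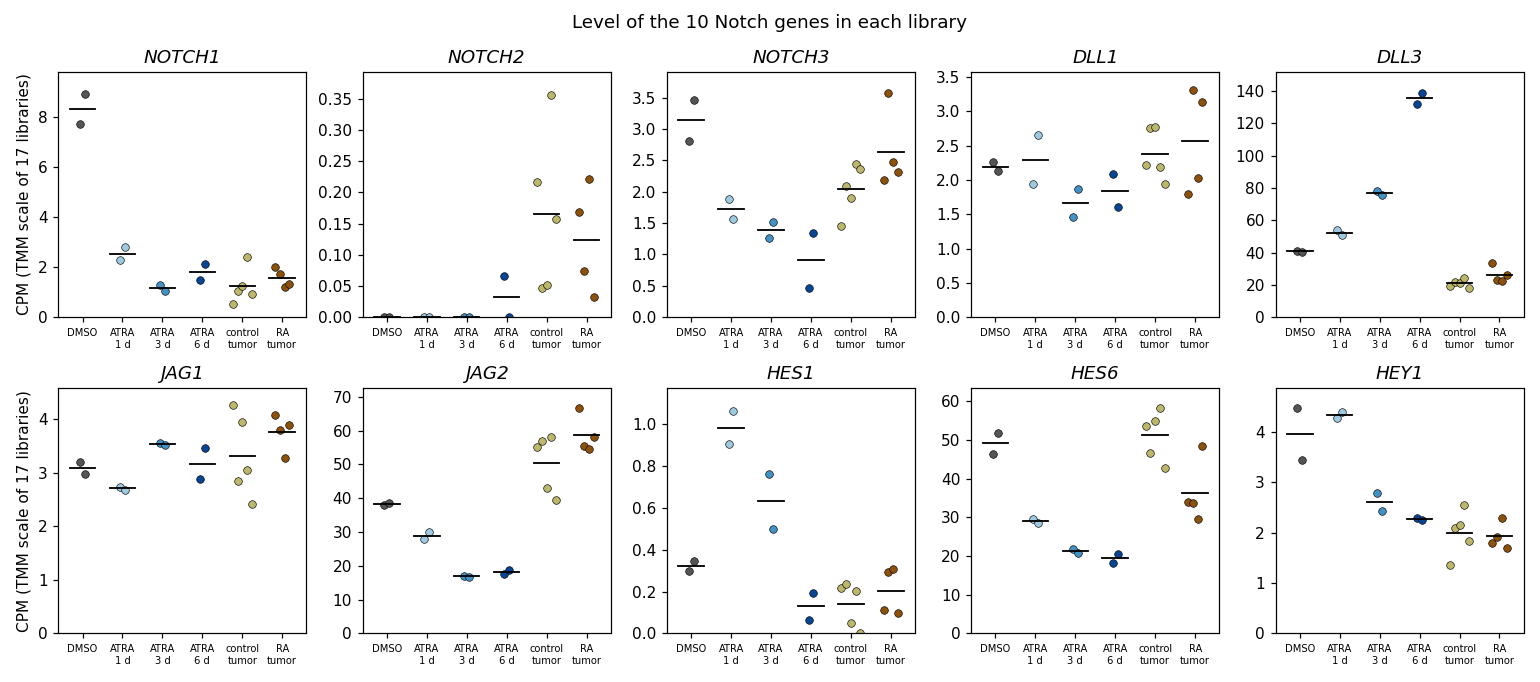
Level of each of the 10 genes (CPM on the TMM scale of 17 libraries, linear axes that start at 0) in every library, with 1 point per library and a line at the mean of each group. NOTCH1 is highest in the DMSO libraries, at 7.75 and 8.93 CPM, DLL3 rises with time in culture to 132 and 139 CPM, and HES1 peaks after 1 day. In tumors the points of control and RA groups overlap for all 10 genes.

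Counted over the genes tested, 1 of 9 rose and 1 of 9 fell at 1 day, where 1.95% of all 20237 genes tested rose and 0.791% fell. At 3 days 4 of 9 fell, against 2.43% of all genes, and none was called higher, against 5.45%; at an unadjusted p under 0.05, 2 of the 9 were higher in edgeR, and DESeq2 called none higher. At 6 days 5 of 9 fell and 1 rose, against 12.3% and 18.8% of all genes. From 1 to 3 days 1 of 9 fell, against 1.22% of all genes, and from 3 to 6 days 1 of 9, against 8.41%. No member was called higher in those steps, where 2.87% and 12.7% of all genes rose; 2 of 9 were higher in each at an unadjusted p under 0.05 in edgeR, and DESeq2 called none higher. The 9 genes include HES1, which was tested because of the groups in which it was high. The median log2 fold change of the 9 was −0.17, −0.58 and −1.10 at 1, 3 and 6 days against DMSO, and that of all genes tested was 0.003, 0.009 and 0.041.

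**Figure D3:**
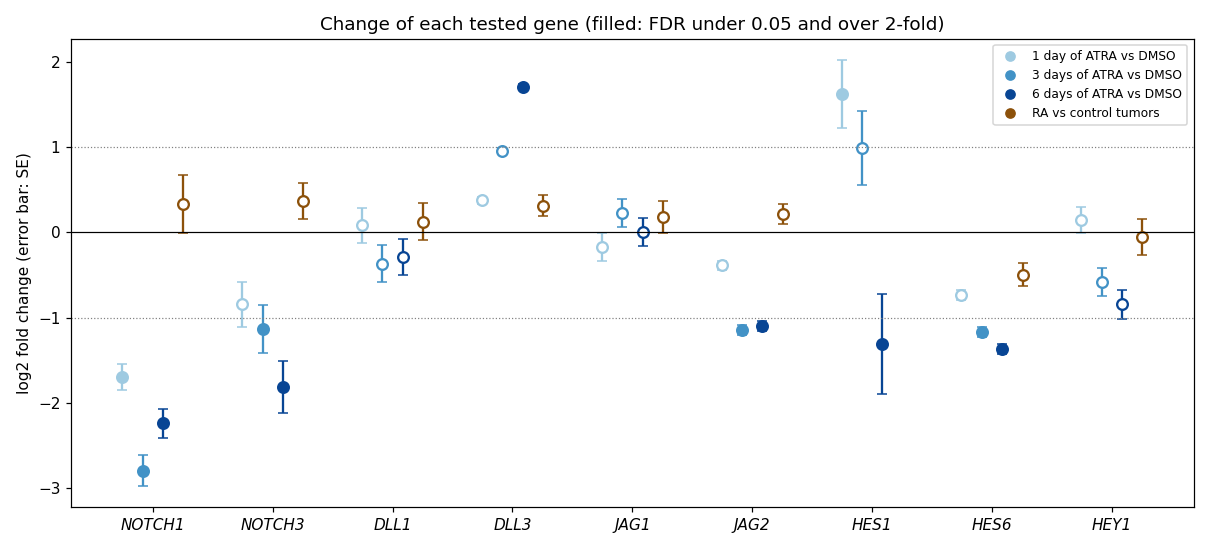
Log2 fold change of each tested gene, with its SE, at 1, 3 and 6 days of ATRA against DMSO in cells and in RA against control tumors; filled points passed FDR under 0.05 and 2-fold, which dotted lines mark. In culture the receptors, JAG2 and HES6 have filled points below 0, and DLL3 has 1 above 0 at 6 days. HES1 has 1 above 0 at 1 day and 1 below 0 at 6 days. No tumor point is filled. HES1 was not tested in tumors.

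In tumors none of the 8 genes tested was called between RA and control groups, where 0.246% of all 21098 genes tested rose and 0.0379% fell. At an unadjusted p under 0.05 in edgeR 1 of the 8 was higher (DLL3) and 1 lower (HES6), and DESeq2 called none. HES6 stood at 53.6, 46.6, 54.8, 58.4 and 42.7 CPM in control tumors and at 34.0, 33.7, 29.5 and 48.5 in RA tumors. Of the RA tumors 3 lay below all 5 control tumors, and RA tumor 4 lay among them. The log2 fold change was −0.49 ± 0.14 (95% interval −0.79 to −0.20, edgeR FDR 0.0998). Without RA tumor 4 it was −0.66 with an edgeR FDR of 0.00387, and with DESeq2 over all 9 tumors the FDR was 0.0158, in each case short of 2-fold.

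DLL3 stood at 19.5, 21.95, 21.2, 24.3 and 18.2 CPM in control tumors and at 33.2, 23.1, 22.5 and 26.3 in RA tumors. RA tumors 1 and 4 lay above all control tumors, and the groups overlapped. The log2 fold change was 0.31 ± 0.12 (95% interval 0.06 to 0.57, edgeR FDR 0.22). NOTCH1 stood at 0.540, 1.04, 1.23, 2.39 and 0.943 CPM in control tumors, and the RA tumors, at 2.01, 1.73, 1.19 and 1.34, lay within that range. Its log2 fold change was 0.33 ± 0.34, with a wide 95% interval of −0.40 to 1.06.

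JAG2 stood at 55, 57.0, 43.0, 58.0 and 39.6 CPM in control tumors and at 66.6, 55.5, 54.4 and 58.1 in RA tumors. RA tumor 1 lay above all control tumors. RA tumor 4 lay just above them on this scale, but below control tumor 4 when tumors were scaled alone (60.5 against 61.75 CPM). The 95% interval of the log2 fold change ran from −0.04 to 0.46. NOTCH3 had a log2 fold change of 0.36 ± 0.21, DLL1 of 0.12 ± 0.22, JAG1 of 0.18 ± 0.19 and HEY1 of −0.06 ± 0.21, with edgeR FDRs of 0.446 to 0.929. HES1 had 4, 5, 1, 4 and 0 counts in control tumors and 2, 8, 7 and 3 in RA tumors, too few to be tested.

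The retinoid effect in tumors was set against that of 6 days in culture in 1 fit of all 17 libraries, where the question is whether the genes responded alike in both settings. The effects differed for 4 of 9 genes, with 3 higher and 1 lower in tumors than in culture, against 7.78% and 13.1% of all 25787 genes tested. The difference was 2.54 ± 0.46 on the log2 scale for NOTCH1 (edgeR FDR 0.000167), 2.15 ± 0.43 for NOTCH3 (FDR 0.000355) and 1.28 ± 0.18 for JAG2 (FDR 1.05e-05), genes that fell in culture and were not called in tumors. It was −1.42 ± 0.17 for DLL3 (edgeR FDR 1.16e-06), which rose in culture. For HES6 it was 0.85 ± 0.22 (edgeR FDR 0.00487), short of 2-fold, and for DLL1 and JAG1 0.39 ± 0.36 and 0.15 ± 0.28. The settings also differed in retinoid, dose, duration, host, growth and library kit, which cannot be told apart here. Starting levels differed as well: DMSO cells and control tumors averaged 8.34 and 1.23 CPM for NOTCH1, and 3.14 and 2.05 for NOTCH3. For DLL3 these means were 40.7 and 21 CPM, and for JAG2 38.3 and 50.5. The part of the starting level in the differences of effect was not tested.

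Control tumors and DMSO cells were compared in the same fit, in which 31.5% of the genes tested were higher and 11.4% lower in control tumors. The median of all genes was 0.246 on the log2 scale and 0.287 with DESeq2's size factors in edgeR. Of 9 members tested, 1 was called: NOTCH1 was 6.74-fold lower in control tumors (log2 fold change −2.75 ± 0.29, edgeR FDR 7.32e-08). No member was called higher in edgeR, where 1 was higher at an unadjusted p under 0.05 (JAG2), and DESeq2 called 1 higher (NOTCH2, with 16 counts over the control tumors and 0 in DMSO cells). DLL3 was 1.93-fold lower (−0.95 ± 0.11, edgeR FDR 4.89e-07) and HEY1 1.98-fold lower (−0.99 ± 0.20, FDR 0.000175), both close to the threshold, and JAG2 was 1.32-fold higher (FDR 0.00764). HEY1 passed it without DMSO library 2 (−1.15) and without control tumor 2, 3 or 4 (−1, −1.01 and −1.07). HES6 differed by 0.06 ± 0.15, with a 95% interval of −0.25 to 0.38.

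Ordered over the 6 groups by mean level, NOTCH1 ran from DMSO (8.34 CPM) and 1 day (2.54) down to 3 days (1.17). The 6-day, RA tumor, control tumor and 3-day groups, which came last, overlapped each with its neighbour. DLL3 ran from 6 days (135 CPM) through 3 days (77.0), 1 day (52.2) and DMSO (40.7), which did not overlap, to RA tumors (26.3) and control tumors (21.0), which did. HES6 was highest in control tumors (51.2 CPM) and DMSO cells (49.1), which overlapped, and lowest at 6 days (19.4). JAG2 was highest in RA tumors (58.7 CPM) and control tumors (50.5), which overlapped, and lowest at 3 days (16.9).

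Host cells in tumors could bring Notch genes of their own where mouse reads align to human genes. Over the whole lists, the 10 endothelial markers summed to 3.03 to 8.32 CPM in control tumors and 3.20 to 5.78 in RA tumors, against 1.72 to 2.25 in DMSO cells, which hold no host cells. PECAM1 among them averaged 1.45 ± 0.27 CPM in control tumors and was at 0 in DMSO cells. The 6 leukocyte markers summed to 2.18 to 3.89 CPM in control tumors and 1.73 to 2.69 in RA tumors. In DMSO cells they summed to 0.71 to 0.906 CPM. Of the 3 tested between control tumors and DMSO cells, CD68 was called higher in control tumors (log2 fold change 2.65) and CD14 was not called (−0.35). CSF1R was called higher too, but it passed the filter on low counts only through tumor libraries, where it was high. A difference was thus built into its being tested, and its call adds nothing. The 6 markers of pericytes and smooth muscle summed to 18.6 to 24.6 CPM in control tumors and 19.7 to 25.6 in RA tumors, against 46.6 to 47.5 in DMSO cells. The 6 fibroblast markers summed to 62.1 to 126 CPM in control tumors and 47.4 to 75.1 in RA tumors, against 191 to 192 in DMSO cells and 57.1 to 59.1 after 6 days of ATRA. The 5 Schwann cell markers summed to 4.69 to 6.21 CPM in control tumors, 5.08 to 6.82 in RA tumors and 7.75 to 8.24 in DMSO cells. The part of host cells or of changes in cell makeup in the values of the Notch genes was not tested.

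The rest of the pathway was described by 8 lists with 64 genes. At 1 day 1 of 55 genes tested rose and 2 fell, where 1.95% and 0.791% of all genes did. At 3 days 1 rose and 6 fell, where 5.45% and 2.43% of all genes did. At 6 days 12 rose and 6 fell, counts near the 18.8% and 12.3% of all genes. Each list follows with its count and its median log2 fold change at 6 days, to be read against those shares and against the median of all genes tested, 0.041.

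Other receptors and ligands had 2 of 5 genes up and 1 down at 6 days (median 0.59). DNER, a Notch-binding protein of neurons, rose 6.17-fold (from 2.02 ± 0.23 to 12.7 ± 0.58 CPM, SD, n = 2 each), and DLL4, a ligand best known from vessels, rose 3.94-fold (from 1.22 ± 0.22 to 4.90 ± 0.10). DLK1, a Delta-like protein that can dampen Notch signals, fell 7.17-fold by 3 days (from 90.8 ± 1.2 to 12.4 ± 0.11 CPM) and rose again 4.87-fold from 3 to 6 days, to 63.1 ± 1.2. DLK2, its relative, fell 2.57-fold by 6 days. Of the 10 endothelial markers, 2 could be tested in culture and both were called higher at 6 days. CLDN5 rose from 1.62 ± 0.32 to 149 ± 7.8 CPM. ERG, with 4 counts over the DMSO libraries and 34 over the 6-day libraries, rose from 0.0585 ± 0.0056 to 0.551 ± 0.17. ERG passed the filter on low counts only through treated libraries, where it was high. A difference was thus built into its being tested, and its call adds nothing to that count. The sum of the 10 went from 1.72 to 2.25 CPM in DMSO cells to 145 to 157 at 6 days, while EMCN and TEK were at 0 in the 6-day libraries and PECAM1 at 0.147 ± 0.072 CPM. Their part in the rise of DLL4 was not tested.

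Of 9 genes for cutting the receptor, FURIN, the protease that cuts it on its way to the surface, rose 2.02-fold at 6 days (median 0.33). Among 5 genes for sugar transfer to the receptor (median −0.05), POFUT1 was 1.93-fold lower and LFNG 1.9-fold higher at 6 days (edgeR FDR 9.06e-25 and 3.5e-14), both short of 2-fold. MFNG, which adds sugars that tune which ligands a receptor answers, had fallen 3.72-fold by 1 day and 5.69-fold by 3 days, and rose 4.69-fold from 3 to 6 days, back to 3.16 ± 1.1 CPM against 3.77 ± 0.55 in DMSO. Of 11 genes tested for endocytosis and turnover, 2 rose and 1 fell at 6 days (median 0.32). NEURL1, which helps ligands to be taken up, rose 2.33-fold by 1 day, 3.23-fold by 3 days and 3.97-fold by 6 days, DTX1 rose 3.43-fold by 6 days, and NEURL1B fell 3.41-fold.

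In the nucleus, 1 of 7 genes of the RBPJ complex rose and 1 fell at 6 days (median −0.30). The coactivator MAML3 rose 3.21-fold (from 62.1 ± 0.12 to 204 ± 2.8 CPM) and its relative MAML2 fell 3.70-fold (from 7.21 ± 1.0 to 1.99 ± 0.089). RBPJ itself averaged 143 to 171 CPM in the 6 groups. Of 7 corepressor genes tested, 1 rose and 1 fell at 6 days (median −0.22). The latter was TLE1, a partner of HES factors, which fell 3.60-fold by 3 days and 4.12-fold by 6 days.

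Of the other HES, HEY and target genes 3 of 5 tested rose at 6 days (median 1.25): HEYL 2.37-fold, HES2 2.98-fold and HES7 9.04-fold. HES7 had 4 counts over the DMSO libraries and 35 over the 6-day libraries, and no more than 4 over those of 1 or 3 days. It passed the filter through the 6-day group alone, where it was high, so a difference was built into its being tested and its call adds nothing to the count of this list. HES4 fell 2.26-fold by 3 days and rose 2.58-fold from 3 to 6 days. HES5, a main target of Notch in neural precursors, had 0 counts in DMSO cells and 1 count over the 6-day libraries.

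Proneural factors, which HES proteins repress, had 2 of 6 genes up and 2 down at 6 days (median −0.03). NEUROG2 rose 4.80-fold (from 6.16 ± 0.67 to 30.4 ± 0.86 CPM) and NEUROD4 2.26-fold, and NEUROD6 fell 2.24-fold at low levels. In control tumors NEUROG2 averaged 68.1 ± 14 CPM (SD, n = 5), 11-fold higher than in DMSO cells.

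In tumors none of the 56 pathway genes tested was called between RA and control groups in edgeR. MAML3 was 1.29-fold higher in RA tumors (edgeR FDR 0.0108), short of 2-fold. At an unadjusted p under 0.05, 12 of the 56 genes were higher and 5 lower, and DESeq2 called none. Between control tumors and DMSO cells 14 of 60 genes tested were higher and 6 lower, where 31.5% and 11.4% of all genes were. MFNG was 9.14-fold higher and LFNG, of the same enzyme family, 6.11-fold lower in control tumors, DNER was 6.68-fold higher and DLL4 2.82-fold higher. Between the effect in tumors and that of 6 days in culture, 7 of 60 differed upward and 12 downward, where 7.78% and 13.1% of all genes did.

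**Figure D4:**
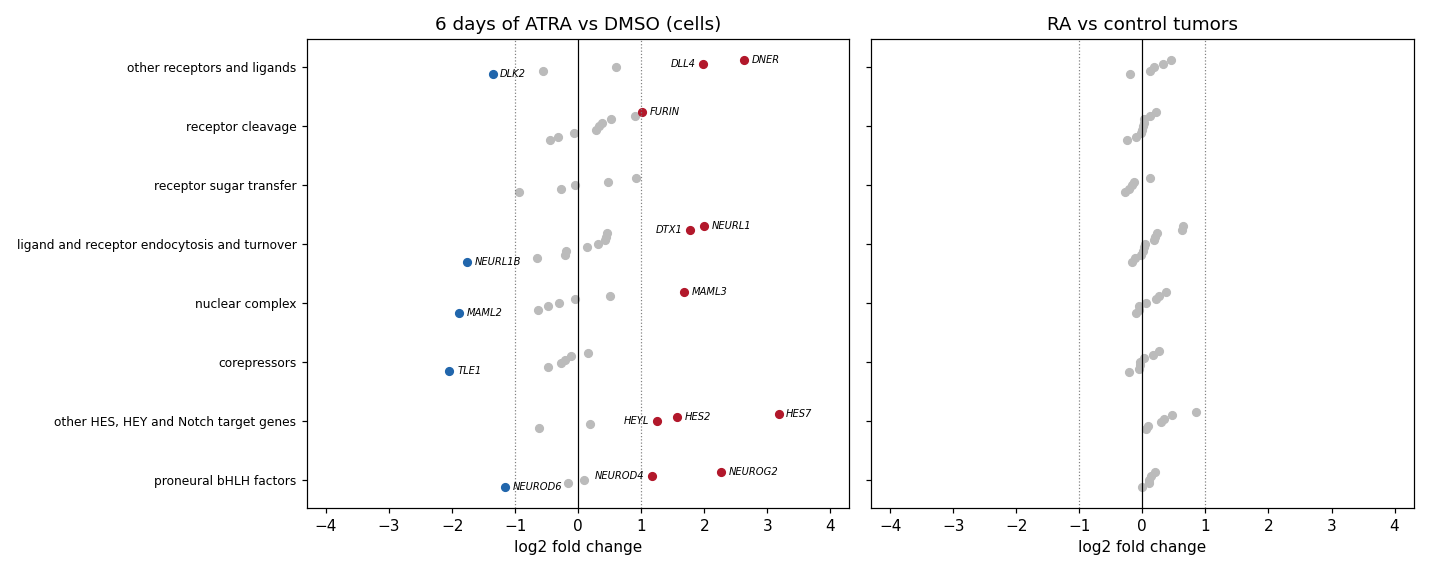
Log2 fold change of tested genes in the 8 pathway lists at 6 days of ATRA against DMSO in cells (left) and in RA against control tumors (right), with called genes in red (higher) or blue (lower) and named. In culture the called genes shown run from TLE1 at −2.04 to HES7 at 3.18, and in tumors no gene is called. Genes not reported here are left out of the plot.

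The genes whose log2 level ran most alike over the 17 libraries were ranked by Pearson's r, as a description across libraries that share groups, kit and depth. DLL3 was closest to CHPF (r = 0.991), ITPK1 and GDAP1L1 (both 0.988), JAG2 to PLEKHA7 (0.978), TNRC6C (0.976) and FLT4 (0.969), and HES6 to SLC39A11 (0.952), FZD4 (0.946) and TIGAR (0.932). HEY1 was closest to ISLR2 (0.940), SLC7A1 and APTX, and NOTCH1 to ITPR3 (0.896), TOX and FAM156B. NOTCH3 was closest to LRIG3 (0.870), KPNA3 and MAML2 (0.855), the last a gene of the pathway. The closest gene reached 0.860 for HES1, 0.837 for DLL1 and 0.762 for JAG1.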

How the data were processed

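RNA was sequenced from 8 libraries of cells and 9 of tumors. As the submitters' processing notes state, trimming was by Trim Galore 0.4.4 and alignment to hg38 by STAR 2.7.10a, and the authors deposited the expected counts that RSEM 1.3.3 gave per gene. The annotation release, the strand setting and any removal of mouse reads are not given in the sources used here. Libraries of cells were made with an Illumina stranded total RNA kit and those of tumors with a KAPA HyperPrep kit.

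Expected counts were rounded, genes with low counts removed by filterByExpr (minimum count 10) and libraries scaled by TMM. Means per group, with no covariate, were fitted to cells, tumors and all 17 libraries (20237, 21098 and 25787 genes) with the robust quasi-likelihood test of edgeR 4.0.16 in R 4.3.3, with Benjamini-Hochberg adjustment. DESeq2 1.42.0 was an alternative. The code was tested on simulated data. Levels per length used exons of GENCODE release 44. At most 4 called genes were named per pathway list and comparison. Members and lists were chosen with earlier results of these data known. Replicate numbers did not pair samples (correlations of deviations −0.45 to 0.18), and replicates differed beyond sampling noise. ERCC RNA was not used for scaling. Single values of some genes in the lists are not reported here, though the counts include them.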

Additional observations from a re-analysis of the deposited data

Results flagged for a closer look

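For 4 genes the effect of retinoic acid in tumors differed from that of 6 days of ATRA in culture, by the test of the difference in 1 edgeR fit of all 17 libraries. On the log2 scale the effect in tumors minus that in culture was 2.54 for NOTCH1, 2.15 for NOTCH3, −1.42 for DLL3 and 1.28 for JAG2. Over the fits that each leave out 1 of the 13 libraries involved, the difference ran from 2.31 to 2.92 for NOTCH1, 1.59 to 3.12 for NOTCH3, −1.55 to −1.35 for DLL3 and 1.2 to 1.34 for JAG2, and it stayed called in each. In 20 tests of single groups of tumors for a library far from the rest, no member had one.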

How the results depend on the processing

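Of the values for single genes under the alternatives, 747 kept their side of the threshold, 10 came to pass it and 11 came to miss it, and none changed sign as a called value. With no fold threshold, calls over all genes numbered 5339, 9113 and 15197 at 1, 3 and 6 days, 6980 from 1 to 3 days, 13782 from 3 to 6 days, 342 in RA tumors, 18479 in control tumors against DMSO cells and 10447 for the difference of effects; called members numbered 6 at 1 day, 5 from 1 to 3 days, 4 from 3 to 6 days and 4 in control tumors against DMSO cells. With no filter on low counts, 124 genes were called in RA tumors and 4 members in control tumors against DMSO cells. In 1 fit of all libraries, 237 genes and 1 member were called at 1 day, 425 and 0 from 1 to 3 days, and 157 genes in RA tumors. With DESeq2, 338 genes and 1 member were called at 1 day, 540 genes from 1 to 3 days, 116 in RA tumors and 2 members in control tumors against DMSO cells. Leaving out 1 library at a time gave 24 to 160 genes in RA tumors (60 with all, 160 without RA tumor 4, 91 without control tumor 2, 24 without RA tumor 2, and 28 to 34 without control tumor 3 or 5 or RA tumor 1 or 3), 0 to 1 members from 1 to 3 days, 1 to 2 from 3 to 6 days (NOTCH3 joined, at −1.65, without 6-day library 2) and 1 to 2 in control tumors against DMSO cells; where an arm kept 1 library, its spread was taken from the others. The causes were not tested.

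Replicate numbers are shared between groups but did not pair the samples. With the replicate number as a block, 12 genes were called in RA tumors and 2 members in control tumors against DMSO cells, where HEY1 was at −1.36; no other call of a member changed.

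Among genes with few counts, the SE on the log2 scale was 0.59 for HES1 and 0.30 for NOTCH3 at 6 days of ATRA. It was 0.34 for NOTCH1 in tumors. The parts of depth and of spread between libraries in these SEs were not tested.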
